A study of Bos taurus with 3 samples.

Results

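The genes of cholesterol synthesis, sterol transport, fatty acid synthesis and lipid storage were followed in 2 cultures of Gonadal Ridge Epithelial-Like (GREL) cells and in 1 culture of adult ovarian fibroblasts. They were taken from a list of 54 gene symbols, of which 46 were named by at least 1 probe set with a single gene on the GeneChip Bovine Genome Array, out of 9155 genes named in this way. For each gene the probe set with the highest mean over the 3 arrays was used. The other 8 (IDI1, HSD17B7, SC5D, STARD4, ABCA1, ABCG1, FADS1 and ACSL4) had no such probe set and were not analysed here. The GREL cells were polygonal cells, clonally enriched from collagenase-dispersed fetal ovaries of Bos taurus, and the labels give 130 days of gestation for both isolates, while the methods place the fetus of isolate 1 slightly earlier. The fibroblasts, cells of fibroblastic shape, came from the medullar stroma of 1 adult ovary, from an animal over 1 year old. Both kinds of culture were grown in DMEM/F12 with fetal calf serum, without other treatment. Cell type, fetal or adult age and donor therefore differed together and cannot be told apart.

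Cells make cholesterol from acetyl-CoA through the mevalonate pathway, which ends in farnesyl diphosphate and squalene, and through a sterol arm that closes and trims the ring system. When sterols in the endoplasmic reticulum are scarce, the escort protein SCAP and the SREBP transcription factors bound to it are freed from the INSIG anchors. Once activated, these factors raise the genes of sterol and fatty acid synthesis. Fatty acids are built by FASN, lengthened by the ELOVL enzymes, desaturated by SCD and the FADS enzymes, joined to coenzyme A by the ACSL enzymes and carried in the cytosol by the FABP proteins. Surplus sterol and fatty acid is stored in lipid droplets coated by perilipins. In the ovary, cholesterol is also the starting material of steroid hormones.

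All values are log2 intensities, rounded to steps of 0.1 in the deposited table. The median over all probe sets was 3.0 in GREL isolate 1, 2.9 in isolate 2 and 2.9 in fibroblasts. The table holds no detection calls, so a level of reference was taken from 45 genes of other organs, such as milk, pancreas and retina genes. Their 90th percentile was 6.2 in GREL isolate 1, 6.0 in isolate 2 and 5.96 in fibroblasts. Of the 46 lipid genes, 17 reached it on all 3 arrays, 30 on at least 1 and 16 on none, and differences of the dimmer genes are less certain. Among all 9155 genes, 2110 reached it on all 3 arrays and 3204 on at least 1, so most genes did not reach it. Of 7 measured epithelial markers 6 were higher in both GREL isolates (41.6% of all genes), KRT19 reaching 11.3 and 11.6 against 7.1 in fibroblasts. Of 12 stromal markers 10 were lower in both isolates (33.5% of all genes). COL1A2, named after its values were seen, was nevertheless bright in the GREL cells too (11.5 and 10.5, against 12.0 in fibroblasts). A lower value may come from fewer cells of a type or from less RNA per cell, and these cannot be told apart in bulk RNA.

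Lipid genes differed between GREL cells and fibroblasts in both directions. In both GREL isolates 3 of the 46 were over 3-fold higher than in fibroblasts (FABP3, ELOVL6 and ACAT2), beside 2.38% of all 9155 genes, and 2 were over 3-fold lower (FABP4 and FABP5), beside 2.38% of all genes. At over 1.5-fold, 14 genes were higher in both isolates and 6 were lower, and over all genes the shares were 16.3% higher and 11% lower. By any amount, 22 of the 46 were higher in both isolates (41.6% of all genes) and 12 were lower in both (33.5% of all genes). The remaining 12 lay on both sides of the fibroblast value, or equal to it in 1 isolate. The median log2 difference, GREL minus fibroblasts, was 0.225 for the lipid genes and 0.05 for all genes. With isolate 1 alone 5 genes were over 3-fold higher, and with isolate 2 alone 21 were lower by any amount.

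The test, limma with Benjamini-Hochberg adjustment over 24016 probe sets, called 0 of the 46 genes at an adjusted p under 0.05, and 0% of all probe sets. From earlier results it was known beforehand that this test calls few or no probe sets with values rounded to 0.1. KRT19, with a mean difference of 4.35, had an adjusted p of 0.182 in limma too, so 0 calls do not show equal expression. The adjusted p of the lipid genes ranged from 0.182 to 0.955 in limma. Unadjusted, 8 of the 46 were under 0.05 and higher and 1 was under 0.05 and lower, while 20.9% of all probe sets were under 0.05. The spread came from the gap between the GREL isolates alone, with 1 residual degree of freedom, and the lone fibroblast array was taken to vary as they do. Where rounding made the isolates equal, as in ACAT2, ELOVL6, TM7SF2 and SCAP, the standard error is too small.

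**Figure D1:**
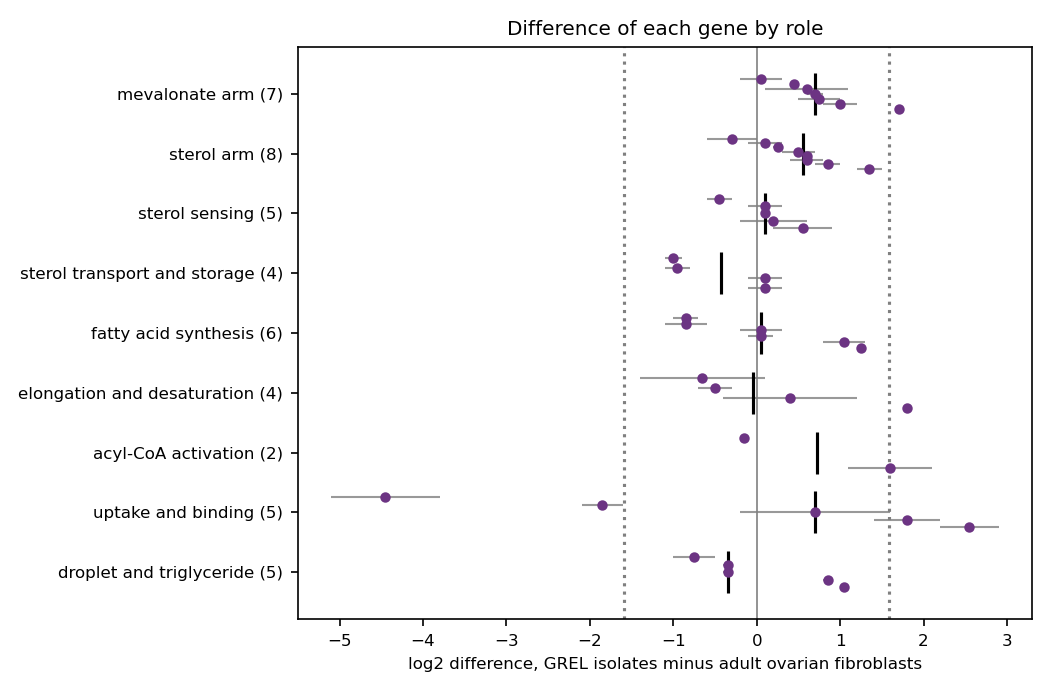
Log2 difference of each of the 46 genes (horizontal axis, GREL minus adult ovarian fibroblasts), grouped by role with the number of genes in brackets; points are the mean of the 2 isolates, grey lines join the isolates, black bars are group medians and dotted lines mark 3-fold. The medians of the mevalonate arm (0.70) and the sterol arm (0.55) lie right of 0, and the genes of uptake and binding spread from -4.45 to 2.55.

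Most genes of cholesterol synthesis were higher in both GREL isolates. Of 15 measured enzymes 12 were higher in both and 0 were lower in both, with a median difference of 0.60. Over all 9155 genes 41.6% were higher in both and 33.5% lower in both, with a median difference of 0.05. Of the 15 enzymes 1 was over 3-fold higher in both isolates (2.38% of all genes) and 6 were over 1.5-fold higher (16.3% of all genes). In the mevalonate arm 6 of 7 genes were higher in both isolates. ACAT2, the cytosolic thiolase that joins 2 molecules of acetyl-CoA, was at 7.7 in both GREL isolates, against 6.0 in fibroblasts (difference 1.70, standard error 0.03, adjusted p = 0.182 in limma). HMGCS1, which makes HMG-CoA, was at 8.9 and 9.0 in the GREL isolates, against 8.5 in fibroblasts, a difference of 0.45 that exceeded the gap of 0.1 between the isolates. HMGCS1 was bright on all 3 arrays, while the fibroblast value of ACAT2, 6.0, only just reached the level of genes of other organs (5.96).

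Farther along the arm, MVK, the mevalonate kinase, was at 4.8 and 5.0 in GREL cells, against 4.2 in fibroblasts, at a probe set of a type (s_at) that can read transcripts of several genes. MVD, which decarboxylates mevalonate diphosphate, was at 5.0 and 5.5 in GREL cells, against 4.5 in fibroblasts. FDPS, the farnesyl diphosphate synthase, was at 8.2 and 7.8 in GREL cells, against 7.0 in fibroblasts (difference 1.00, standard error 0.28, adjusted p = 0.286 in limma). These 3 enzymes were higher in both isolates, and the mean difference of each exceeded the gap between its isolates. FDFT1, the squalene synthase, was at 6.1 in isolate 1 but at 5.1 in isolate 2, against 5.0 in fibroblasts. At this probe set its difference came almost wholly from isolate 1. At another FDFT1 probe set isolate 2 was the higher, at 5.6 against 5.4 in isolate 1 and 5.1 in fibroblasts. PMVK, the phosphomevalonate kinase, was the exception in the arm, with 3.0 and 3.5 in GREL cells on either side of 3.2 in fibroblasts.

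In the sterol arm 6 of 8 genes were higher in both isolates (41.6% of all genes). EBP, the isomerase that moves the sterol ring double bond, was at 6.2 and 6.5 in GREL cells, against 5.0 in fibroblasts (difference 1.35, standard error 0.21, adjusted p = 0.227 in limma). NSDHL, one of the enzymes that remove the methyl groups at carbon 4, was at 6.2 and 6.5 in GREL cells, against 5.5 in fibroblasts. These were the genes of the arm with the widest separation, and both had GREL values at or above the level of genes of other organs and fibroblast values below it. CYP51A1, the lanosterol demethylase, was at 7.5 and 7.1 in GREL cells, against 6.7 in fibroblasts. DHCR7, which performs the last reduction to cholesterol, was at 7.1 and 6.7 in GREL cells, against 6.4 in fibroblasts. SQLE, the squalene epoxidase and a control point of the pathway, was at 7.7 and 7.6 in GREL cells, against 7.4 in fibroblasts. TM7SF2, a sterol reductase, was dim throughout, at 2.8 in both GREL isolates against 2.2 in fibroblasts. MSMO1, a sterol methyl oxidase, was at 9.1 and 8.7 in GREL cells, on either side of 8.8 in fibroblasts. LSS, which closes the sterol ring, was at 4.1 and 3.5 in GREL cells, against 4.1 in fibroblasts, and was the one enzyme of the pathway that was lower in an isolate by more than 0.2.

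A list of cell cycle genes stood apart between the same cultures. Both GREL isolates were over 1.5-fold higher in all 16 of its measured genes (16.3% of all genes), and its median difference was 2.375. The summed linear intensity of the 16 was 1732 in GREL isolate 1 and 3141 in isolate 2, against 488.2 in fibroblasts. Each of the 16 was higher in isolate 2 than in isolate 1, whereas among the 15 sterol synthesis genes 6 were higher in isolate 2 and 7 in isolate 1. Over all 9155 genes 4706 were higher in isolate 2 and 3173 in isolate 1. The part of proliferation in the sterol differences was not tested.

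**Figure D2:**
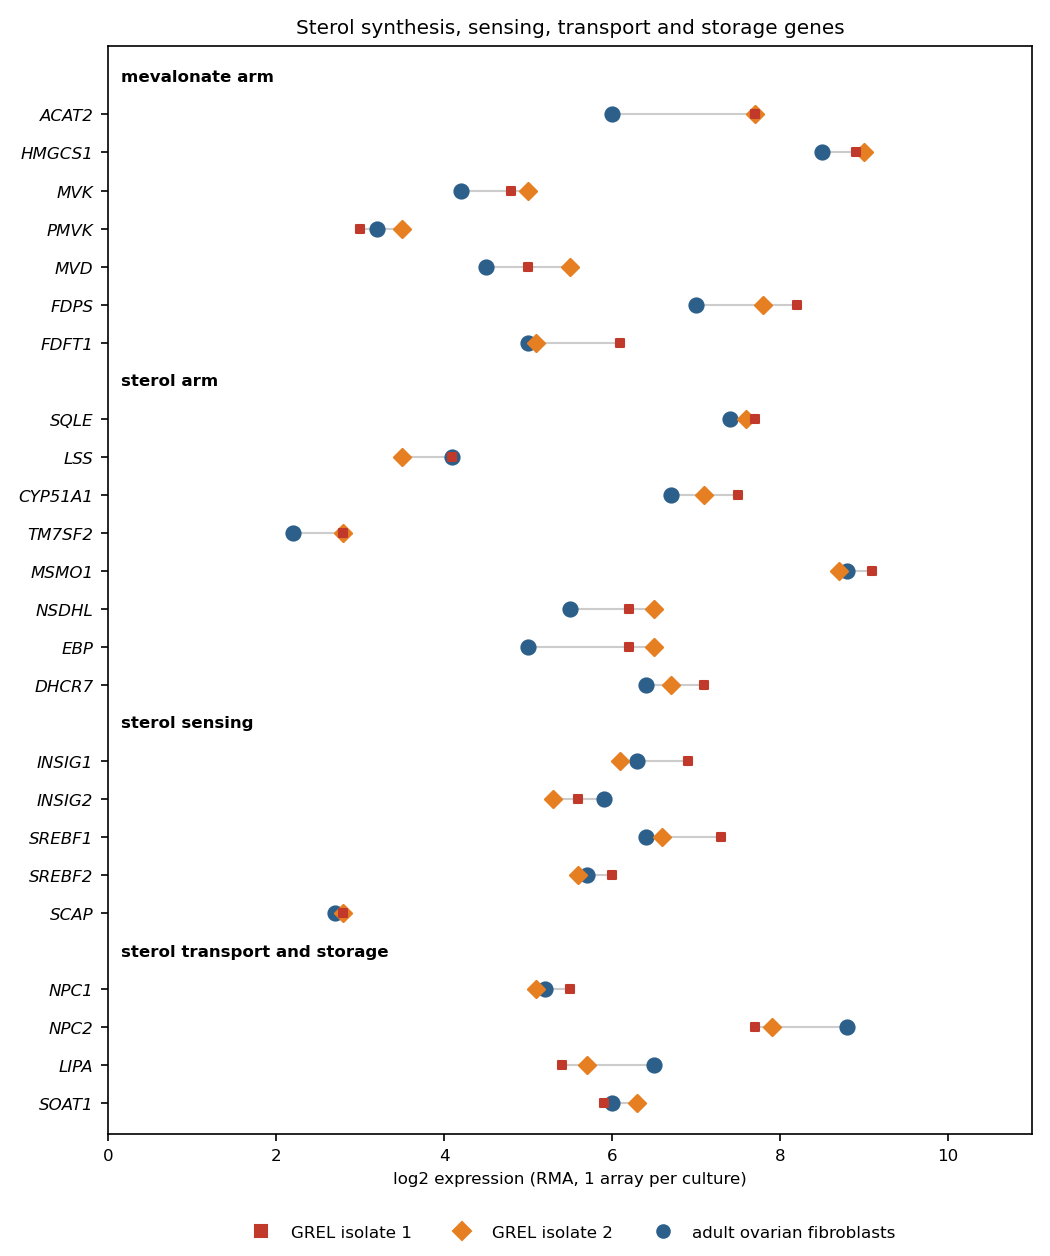
Log2 expression (RMA values, horizontal axis) on 1 array per culture for 24 genes of sterol synthesis, sensing, transport and storage in GREL isolate 1 (squares), GREL isolate 2 (diamonds) and adult ovarian fibroblasts (circles). In 12 of the 15 synthesis genes both GREL symbols lie right of the circle, while for NPC2 and LIPA both lie left of it.

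The genes that sense sterols differed by small amounts. None of the 5 was over 1.5-fold higher (16.3% of all genes) or lower (11% of all genes) in both isolates, and their median difference was 0.10. SREBF1, which encodes SREBP-1, the factor most tied to fatty acid synthesis, was at 7.3 and 6.6 in GREL cells, against 6.4 in fibroblasts. SREBF2, which encodes SREBP-2, the factor most tied to cholesterol synthesis, was at 6.0 and 5.6 in GREL cells, on either side of 5.7 in fibroblasts. INSIG1, itself a target of SREBP, was at 6.9 and 6.1 in GREL cells, on either side of 6.3 in fibroblasts. In each of these 3 genes isolate 1 was the higher of the isolates, by 0.4 to 0.8. INSIG2, the second anchor protein, was at 5.6 and 5.3 in GREL cells, against 5.9 in fibroblasts. SCAP was dim, at 2.8 in both GREL isolates against 2.7 in fibroblasts, a difference of 1 rounding step.

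Of the 4 measured genes of sterol transport and storage, 2 were lower in both GREL isolates (33.5% of all genes). For the other 2 the isolates lay on either side of the fibroblasts. NPC2, the soluble lysosomal protein that binds cholesterol, was at 7.7 and 7.9 in GREL cells, against 8.8 in fibroblasts (difference -1.0, standard error 0.14, adjusted p = 0.208 in limma). LIPA, the lysosomal acid lipase that frees cholesterol from its esters, was at 5.4 and 5.7 in GREL cells, against 6.5 in fibroblasts (difference -0.95, standard error 0.21, adjusted p = 0.270 in limma). In both genes the isolates lay within 0.3 of each other and below the fibroblasts. NPC1, the membrane partner of NPC2, was at 5.5 and 5.1 in GREL cells, on either side of 5.2 in fibroblasts. SOAT1, which esterifies cholesterol for storage, was at 5.9 and 6.3 in GREL cells, on either side of 6.0 in fibroblasts.

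Of 30 further genes of sterol metabolism, 17 were measured, with a median difference of -0.05. In both isolates 0 were over 3-fold higher (2.38% of all genes) and 1 was over 3-fold lower (2.38% of all genes). This was CH25H, the cholesterol 25-hydroxylase, at 1.7 and 1.6 in GREL cells, against 5.5 in fibroblasts (difference -3.85, standard error 0.07, adjusted p = 0.182 in limma). All 3 values were below the level of genes of other organs. At over 1.5-fold, 2 genes were higher in both isolates (16.3% of all genes) and 6 were lower (11% of all genes). Besides CH25H the lower genes, named after their values were seen, were the lipoprotein receptors VLDLR and SCARB1, the apolipoprotein APOE, the phospholipid transfer protein PLTP and NR1H2, a nuclear receptor for oxysterols. APOE was at 5.4 and 5.8 in GREL cells, against 6.5 in fibroblasts, and SCARB1 at 6.7 and 6.2 in GREL cells, against 7.3 in fibroblasts. NR1H2 was at 5.7 and 5.2 in GREL cells, against 6.4 in fibroblasts. VLDLR (4.7 and 3.2 in GREL cells, 5.6 in fibroblasts) and PLTP (1.9 in both GREL isolates, 2.5 in fibroblasts) were below the level on all 3 arrays. The higher genes, also named after their values were seen, were ACAT1, the mitochondrial thiolase, and GPAM, which starts glycerolipid rather than sterol synthesis.

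Among the genes of fatty acid synthesis, both GREL isolates were over 1.5-fold higher in 2 of 6 (16.3% of all genes) and over 1.5-fold lower in 2 (11% of all genes). FASN, the fatty acid synthase, was at 8.7 and 8.2 in GREL cells, against 7.4 in fibroblasts (difference 1.05, standard error 0.35, adjusted p = 0.319 in limma). AACS, which activates acetoacetate for sterol and fatty acid synthesis, was at 6.1 and 6.2 in GREL cells, against 4.9 in fibroblasts (difference 1.25, standard error 0.07, adjusted p = 0.182 in limma). For the remaining 4 genes the isolates were not both higher. ACLY, which releases acetyl-CoA from citrate, was at 8.2 and 7.7 in GREL cells, on either side of 7.9 in fibroblasts. ACACA, which makes malonyl-CoA, was dim, at 3.5 and 3.2 in GREL cells and 3.3 in fibroblasts. ACSS2, which makes acetyl-CoA from acetate, was at 5.1 and 5.4 in GREL cells, against 6.1 in fibroblasts. ME1, the malic enzyme that supplies NADPH, was at 7.0 and 6.5 in GREL cells, against 7.6 in fibroblasts. ACSS2 and ME1 were lower in both isolates, each by 0.85 on average.

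Elongases and desaturases went different ways. ELOVL6, which lengthens palmitate, was at 4.1 in both GREL isolates, against 2.3 in fibroblasts (difference 1.80, standard error 0.03, adjusted p = 0.182 in limma), all below the level of genes of other organs. ELOVL5, which lengthens polyunsaturated fatty acids, was bright, at 9.2 and 8.8 in GREL cells, against 9.5 in fibroblasts. Both desaturases separated the GREL isolates more than they separated GREL cells from fibroblasts. SCD, which makes oleate from stearate, was at 8.6 in isolate 1 and 7.0 in isolate 2, on either side of 7.4 in fibroblasts. FADS2, the delta-6 desaturase, was at 6.8 in isolate 1 and 5.3 in isolate 2, against 6.7 in fibroblasts.

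Of the 46 lipid genes, FABP4, FABP3 and FABP5 had the largest mean differences. FABP3, a fatty acid-binding protein known from heart and muscle, was at 7.4 and 6.7 in GREL isolates 1 and 2, against 4.5 in fibroblasts (difference 2.55, standard error 0.49, adjusted p = 0.261 in limma). FABP4, the binding protein of adipocytes, macrophages and capillary endothelium, was at 1.6 and 2.9 in GREL cells, against 6.7 in fibroblasts (difference -4.45, standard error 0.91, adjusted p = 0.261 in limma). FABP5, a widely expressed binding protein first known from skin, was bright in every culture, at 8.5 and 8.0 in GREL cells, against 10.1 in fibroblasts (difference -1.85, standard error 0.35, adjusted p = 0.258 in limma). In these 3 genes the difference was over 3 times the gap between isolates. The fibroblast value of FABP3 and the GREL values of FABP4 were below the level of genes of other organs, so how far these genes differed is uncertain.

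ACSL3, an acyl-CoA synthetase of the endoplasmic reticulum and lipid droplets, was at 7.1 and 6.1 in GREL cells, against 5.0 in fibroblasts (difference 1.60, standard error 0.70, adjusted p = 0.392 in limma). LPL, the lipase that releases fatty acids from circulating triglyceride, was at 6.2 and 5.4 in GREL cells, against 4.0 in fibroblasts (difference 1.80, standard error 0.56, adjusted p = 0.298 in limma). ACSL3 and LPL were over 2-fold higher in both isolates and highest in isolate 1. The fibroblast values of both, and LPL in isolate 2, were below the level of genes of other organs. How far these genes differed is therefore uncertain. ACSL1, the related synthetase of liver, fat and heart, was at 6.5 and 6.6 in GREL cells, against 6.7 in fibroblasts. CD36, a membrane carrier of fatty acids, was at 1.1 in isolate 1 and 2.9 in isolate 2, against 1.3 in fibroblasts, and was dim in every culture.

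Markers of cell types known for FABP4, CD36 or LPL were dim in every culture. FABP4 itself was above the level of genes of other organs in fibroblasts (6.7), and LPL reached it in GREL isolate 1 (6.2). Of 9 measured adipocyte markers 0 reached the level of genes of other organs on any array, with medians of 1.7 and 1.8 in GREL isolates 1 and 2 and 1.7 in fibroblasts. ADIPOQ was at 1.2 in both GREL isolates against 1.1 in fibroblasts, and PPARG at 1.7 and 1.5 in GREL cells against 1.5 in fibroblasts. LIPE, named after its values were seen, was over 1.5-fold higher in both isolates, at 3.2 and 3.8 against 2.6 in fibroblasts. The summed linear intensity of the 9 adipocyte markers was 39.4 and 49.6 in GREL cells, against 41.1 in fibroblasts. Of 8 macrophage markers 0 reached the level on any array, with summed intensities of 30.8 and 40.2 in GREL cells, against 30.7 in fibroblasts. Of 9 endothelial markers 0 reached it, but the sum was 42.5 and 42.8 in GREL cells, against 103.6 in fibroblasts. PECAM1 (1.6 and 2.1 in GREL cells, 1.8 in fibroblasts), CDH5 and VWF did not separate the groups. ENG was at 3.0 and 2.6 in GREL cells, against 5.6 in fibroblasts, and EMCN at 3.1 and 2.9 in GREL cells, against 4.7 in fibroblasts. Of the 9, 3 were lower in both isolates (33.5% of all genes) and 1 was higher (41.6% of all genes). The higher one, CLDN5, named after its values were seen, was at 2.2 and 2.1 in GREL cells, against 1.6 in fibroblasts. The part of endothelial cells in the FABP4 difference was not tested.

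The genes of lipid droplets and triglyceride were split. PLIN3, a perilipin that also circulates in the cytosol, was at 5.9 and 6.0 in GREL cells, against 4.9 in fibroblasts (difference 1.05, standard error 0.07, adjusted p = 0.184 in limma). PLIN2, the perilipin adipophilin, was at 5.9 and 6.4 in GREL cells, against 6.9 in fibroblasts (difference -0.75, standard error 0.35, adjusted p = 0.392 in limma). These 2 coat proteins therefore lay on opposite sides of 0 in both isolates. DGAT2, which completes triglyceride synthesis, was dim, at 2.0 and 2.1 in GREL cells, against 1.2 in fibroblasts. DGAT1, an unrelated enzyme of the same step, was at 5.3 and 5.4 in GREL cells, against 5.7 in fibroblasts. PNPLA2, the triglyceride lipase of droplets, was at 3.7 and 3.6 in GREL cells, against 4.0 in fibroblasts.

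**Figure D3:**
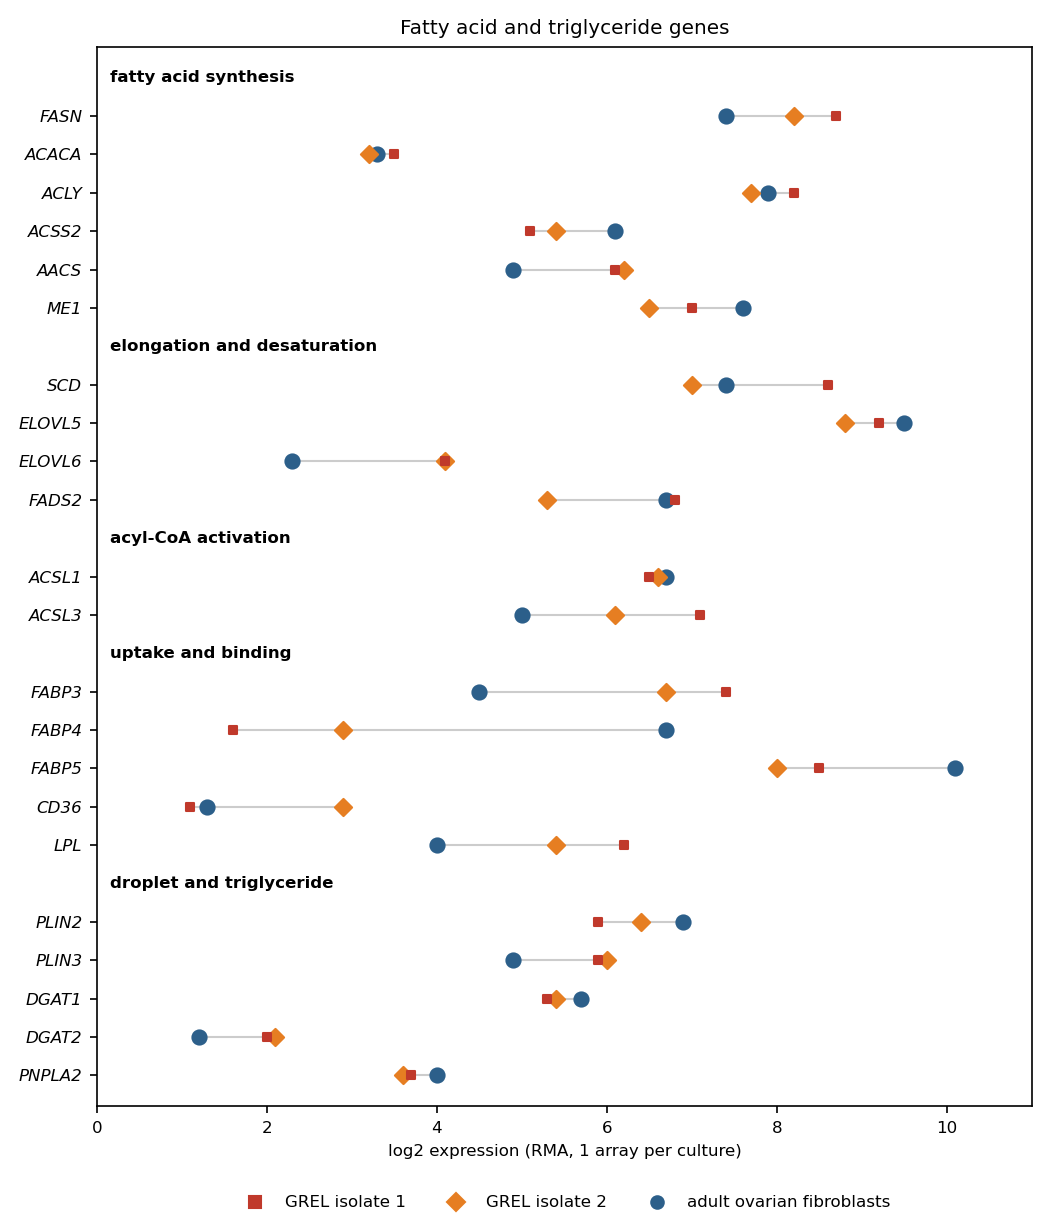
Log2 expression (RMA values, horizontal axis) on 1 array per culture for 22 genes of fatty acid and triglyceride metabolism in GREL isolate 1 (squares), GREL isolate 2 (diamonds) and adult ovarian fibroblasts (circles). FABP3 lies at 7.4 and 6.7 in GREL cells and 4.5 in fibroblasts, and FABP4 at 1.6 and 2.9 in GREL cells and 6.7 in fibroblasts.

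Of 40 further genes of fatty acid and triglyceride metabolism, 28 were measured, with a median difference of 0.075. In both isolates 1 was over 3-fold higher (2.38% of all genes) and 0 were over 3-fold lower (2.38% of all genes). The higher gene was ELOVL7, another elongase, at 5.8 and 5.5 in GREL cells, against 2.0 in fibroblasts (difference 3.65, standard error 0.21, adjusted p = 0.182 in limma). All 3 values were below the level of genes of other organs, so the size of this difference is uncertain. At over 1.5-fold, 4 were higher in both isolates (16.3% of all genes) and 3 were lower (11% of all genes). The other higher genes, named after their values were seen, were IDH1, a cytosolic source of NADPH, G0S2, an inhibitor of PNPLA2, and FADS3. IDH1 was at 7.1 and 7.0 in GREL cells, against 5.8 in fibroblasts, while ME1, another source of NADPH, was lower. The lower genes, named after their values were seen, were MLYCD, ACSS1 and AGPAT1. ACSS1, the mitochondrial relative of ACSS2, was at 2.5 in both GREL isolates, against 3.8 in fibroblasts.

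The GREL isolates differed from each other in several lipid genes. In 6 of the 46 they were 1.0 or more log2 units apart (13.0%), against 2.99% of all genes. Isolate 1 was the higher in 4 of these (SCD, FADS2, FDFT1 and ACSL3) and isolate 2 in 2 (CD36 and FABP4). The gap of FDFT1 depended on the probe set: at another one isolate 1 was at 5.4 and isolate 2 at 5.6. Isolate 1 was above isolate 2 by any amount in 24 of the 46 (52.2%), against 34.7% of all genes. In 14 of the 46 the gap between isolates was larger than the mean difference from fibroblasts, a count not made over all genes. In 11 the isolates lay on opposite sides of the fibroblast value. In 12 of the 46 they were not both higher or both lower, against 2276 of all 9155 genes, a similar share. The median gap was 0.4 for the lipid genes and 0.2 for all genes. With 1 array per isolate the gap holds both the difference between fetuses and the error of the array.

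**Figure D4:**
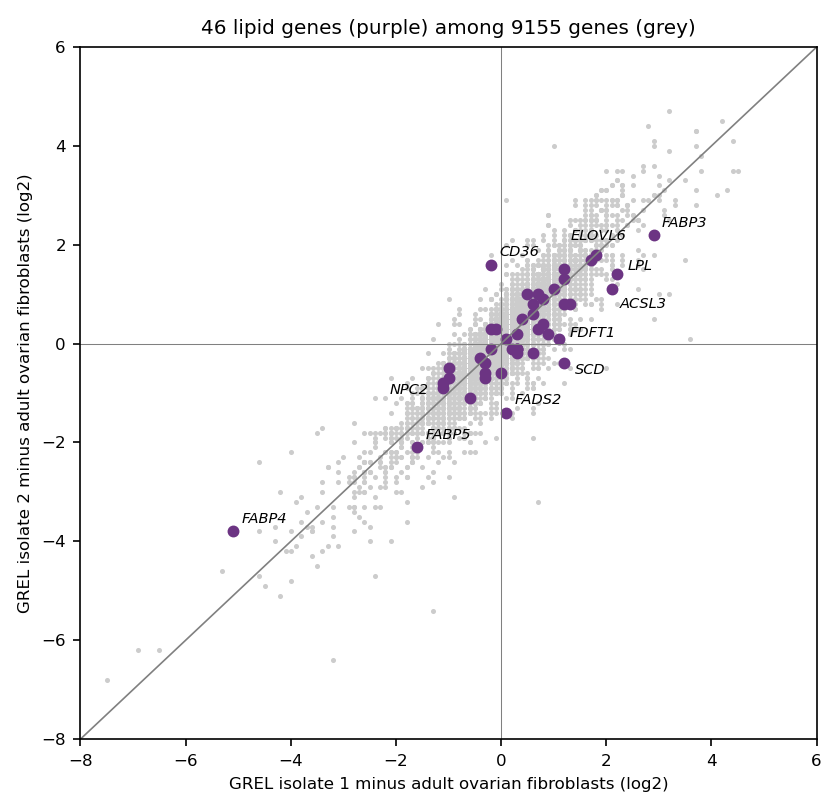
Log2 difference from adult ovarian fibroblasts in GREL isolate 1 (horizontal axis) and in GREL isolate 2 (vertical axis) for 46 lipid genes (purple) and all 9155 genes (grey), with the line of equality. SCD and FADS2 lie far below the line and CD36 above it, while FABP3, FABP4 and FABP5 lie on the same side of 0 in both isolates.

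Of the 46 genes 14 were read by more than 1 probe set. In 10 of the 14 the mean difference of the 2 isolates had the same sign at all probe sets. The separation of FABP5 was seen at its other probe set too, at 6.2 and 5.4 in GREL cells, against 8.8 in fibroblasts. For FABP4 the other probe set was dim, at 1.3 and 1.7 in GREL cells, against 2.5 in fibroblasts, and its difference was -1.0 in place of -4.45. All 3 probe sets of ACSL3 were higher in both isolates, with differences of 1.10 to 1.65. ME1 was lower at both of its probe sets, by 0.85 and 1.35 on average. HMGCS1 and MVK were higher in both isolates at every probe set, and a dimmer probe set of AACS had 3.0 and 2.6 in GREL cells, against 2.5 in fibroblasts. SREBF1 had a positive mean difference at every probe set. At its dimmer probe sets, however, isolate 2 did not exceed the fibroblasts (5.0 against 5.0, 2.8 against 2.8 and 1.7 against 1.9). The genes with probe sets of both signs were FDFT1, LSS, INSIG2 and SCAP. Of the FDFT1 probe sets, that of highest mean was at 6.1 and 5.1 in GREL cells and 5.0 in fibroblasts, the next at 5.4 and 5.6 in GREL cells and 5.1 in fibroblasts, and the dimmest at 0.8 and 0.7 in GREL cells and 0.9 in fibroblasts. For INSIG2 the mean difference ranged from -0.45 to 0.60 over 3 probe sets, so that its direction is not settled.

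**Figure D5:**
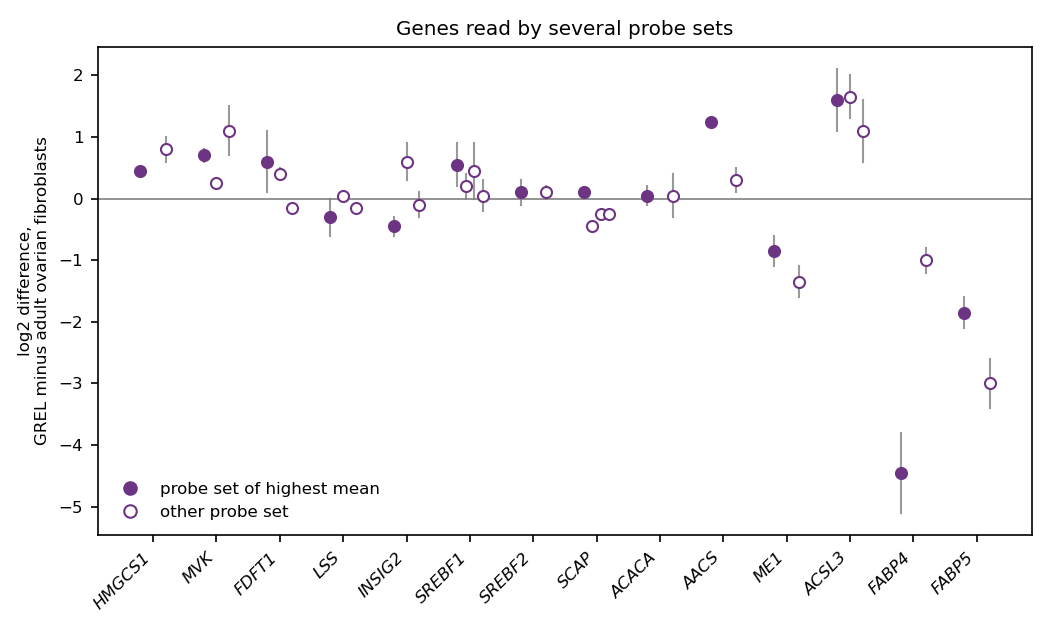
Mean log2 difference of the GREL isolates from adult ovarian fibroblasts (vertical axis) at each probe set of the 14 genes with more than 1, with vertical lines joining the 2 isolates. Filled points are the probe sets of highest mean used elsewhere, and the open points of FABP5, ME1 and ACSL3 lie on the same side of 0 as the filled ones.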

How the data were processed

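RNA of 2 GREL cell isolates and 1 adult ovarian fibroblast culture was hybridized to 1 GeneChip Bovine Genome Array each. The authors deposited log2 values after RMA background correction and quantile normalization (Partek 6.5 in the submitters' processing notes), here rounded to 0.1. All value columns were matched to a sample, and 0 were left unused. The 112 control probe sets among the 24128 were dropped. Of the rest 13292 had 1 gene symbol in the platform annotation, 86 had several and 10638 were unnamed here. In 13263 the gene identifier was found in the RefSeq gene table (ARS-UCD2.0) and 0 symbols differed. Coordinates are not printed, and sequences were not analysed here.

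GREL cells were compared with fibroblasts across all probe sets with limma 3.58.1 (lmFit, eBayes) in R 4.3.3, with Benjamini-Hochberg adjustment, in place of the one-way ANOVA of the methods. The fit was tested on simulated data. Counts and figures were made in Python 3.11.15 with pandas 2.3.3, numpy 2.4.6 and matplotlib 3.10.9. Genes were counted as over 3-fold, the threshold the study used, where both isolates exceeded it. The isolates are separate fetal cultures and the fibroblasts 1 culture, so p-values measure the spread between 2 cultures only. The number of arrays limits the precision.

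The lipid genes and all gene lists were chosen with earlier results of these data known. Full values were printed for genes over 1.5-fold in both isolates, for genes with isolates 1.0 or more apart and for the brightest and dimmest gene of each role, with the others added to account for every gene. In other lists up to 2 genes over 3-fold were named in each direction, along with defining cell type markers. Alternatives were the mean over probe sets, repeated quantile normalization, centring on the median, a filter on dim probe sets, other fold thresholds, other variance priors, the one-way ANOVA itself, spreading of the rounded values, the 95th percentile and leaving out each isolate.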

Additional observations from a re-analysis of the deposited data

How the results depend on the processing

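No paired analysis was possible because the fibroblast group has 1 culture. Of the 46 genes, 3 over 3-fold higher became 7 at over 2-fold and 14 at over 1.5-fold, and 2 over 3-fold lower became 6 at over 1.5-fold. With 1 GREL isolate left out, 4 to 5 genes were over 3-fold higher, 2 were over 3-fold lower, 25 to 30 were higher and 15 to 21 lower by any amount, and the median difference was 0.15 to 0.30. Of the 15 sterol synthesis genes 13 were then higher, and their median was 0.50 to 0.60. Quantile normalization applied again gave a median of 0.125 over the 46 genes, in place of 0.225, and a sterol synthesis median of 0.50, in place of 0.60. The mean over probe sets, centring on the median and the filter on dim probe sets kept these counts within 1.5 times, and none of the 20 genes over 1.5-fold turned its direction with the mean over probe sets, repeated normalization or centring. The mean over probe sets moved 6 of the 46 differences by more than the isolates' spread, among them AACS (0.775), FABP4 (-2.725) and FABP5 (-2.425). With a level set at the 95th percentile, 6 in place of 17 genes reached it on all arrays. limma called 0 lipid genes with an intensity trend, repeated normalization, centring or the filter, and the one-way ANOVA of the methods called 0 of 42 genes (1 unadjusted). A robust prior called 3 of the 46 (ELOVL6, ACAT2 and TM7SF2, whose isolates were equal after rounding) and 1189 of all probe sets. Values spread within the rounding step gave a median of 2.5 lipid genes and 521.5 probe sets over 20 draws, with ELOVL6 called in 16 draws, ACAT2 in 14, FABP4 in 10 and FABP3 in 8. The causes were not tested beyond what rounding shows. Without either isolate no residual degree of freedom is left, so limma was not run.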

Other observations

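Most genes of fatty acid oxidation were not separated between the cultures in a shared direction. Of 26 listed genes 23 were measured, with a median log2 difference of 0.00 between GREL cells and fibroblasts. In both isolates 7 were higher (41.6% of all genes) and 4 were lower (33.5% of all genes) by any amount. The other 12 lay on both sides of the fibroblast value or equal to it. None was over 3-fold higher (2.38% of all genes) and 1 was over 3-fold lower (2.38% of all genes). This was ECI1, a mitochondrial isomerase for unsaturated fatty acids, at 5.1 and 5.4 in GREL cells, against 7.2 in fibroblasts (difference -1.95, standard error 0.21, adjusted p = 0.20 in limma). CPT2, which receives fatty acids on the inner mitochondrial membrane, was at 6.3 in both GREL isolates, against 7.4 in fibroblasts. PPARGC1A, a coactivator of mitochondrial genes, was dim, at 1.5 and 1.7 in GREL cells, against 2.8 in fibroblasts. CPT1B, the muscle form of the enzyme that commits fatty acids to mitochondrial entry, was over 1.5-fold higher in both isolates, at 2.8 and 3.0 in GREL cells, against 2.2 in fibroblasts, and also dim. CPT1B, CPT2 and PPARGC1A were named after their values were seen. In 17 of the 23 genes isolate 2 was above isolate 1, and in 4 isolate 1 was the higher. Among the 46 lipid genes isolate 1 was the higher in 24. Over all 9155 genes isolate 2 was the higher in 4706 and isolate 1 in 3173.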
